A study of Mus musculus with 6 samples.

Results

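The transcripts of the glucagon receptor (Gcgr), the glucagon-like peptide receptor (Glp1r) and the receptor for glucose-dependent insulinotropic polypeptide (Gipr) were examined in mouse beta-cells. They were taken by gene symbol, and all 3 were present among the 13535 genes of the table. RNA came from beta-cells that were sorted by FACS after 5 days of culture from pseudo-islets, which are reaggregated clusters of alpha-, beta- and delta-cells, or from pseudo-beta, made of beta-cells alone. The cells were from wild-type C57BL/6JRj male mice of 12 weeks, and both kinds of cluster were kept in the same islet medium (RPMI with serum) and the labels name no agent beside the co-cultured cells. There were 3 samples of each kind, 1 of either from each of the experiments that the labels number 35, 36 and 37. Whether an experiment pooled several mice is not given in the sources used here. The comparison asks which beta-cell transcripts depend on the presence of alpha- and delta-cells.

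The GCGR, GLP1R and GIPR proteins are G-protein-coupled receptors of class B, which bind peptide hormones with a large extracellular domain. On beta-cells all of them couple mainly to the stimulatory G protein, which activates adenylyl cyclase, raises cAMP and strengthens insulin secretion when glucose is high. Glucagon, made by alpha-cells, is the ligand of GCGR and at higher concentrations also activates GLP1R, while GLP1 and GIP are the gut hormones called incretins. The authors summed up each library as DESeq2-normalized counts, which add up to 17994346 to 19635287 per library over the 13535 genes. Read depth is not known. Values of single libraries are given in the order of experiments 35, 36 and 37. Libraries correlated at 0.941 to 0.962 across genes on the log2 scale, and no pair of libraries held identical values.

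On GRCm38, Gcgr (ENSMUSG00000025127) lies at chr11:120530699-120538986 on the plus strand, Glp1r (ENSMUSG00000024027) at chr17:30901817-30940791 on the plus strand, and Gipr (ENSMUSG00000030406) at chr7:19156061-19166127 on the minus strand. In GENCODE M21 their principal transcripts have 14, 13 and 14 exons and 1957, 5811 and 2856 bases, of which 1455, 1389 and 1380 are coding. The coding parts are thus of similar length, and the transcripts differ mainly in their untranslated parts. The promoters of Gcgr and Glp1r are shown because both transcripts are compared between clusters with and without alpha-cells, the source of the cAMP-raising hormone glucagon. They are the 250 bases before the RefSeq gene start (GRCm38.p6), chr11:120530477-120530726 for Gcgr and chr17:30901617-30901866 for Glp1r, both on the plus strand, and capitals mark GC boxes (GGGCGG or its complement CCGCCC). Both windows end past the gene starts given above, and distances are counted from the RefSeq starts.
Gcgr promoter: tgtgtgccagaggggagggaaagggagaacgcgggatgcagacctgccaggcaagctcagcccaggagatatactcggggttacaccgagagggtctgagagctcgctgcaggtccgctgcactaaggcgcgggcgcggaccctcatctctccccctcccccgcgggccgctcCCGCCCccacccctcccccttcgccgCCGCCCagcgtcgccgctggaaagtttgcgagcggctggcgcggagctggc
Glp1r promoter: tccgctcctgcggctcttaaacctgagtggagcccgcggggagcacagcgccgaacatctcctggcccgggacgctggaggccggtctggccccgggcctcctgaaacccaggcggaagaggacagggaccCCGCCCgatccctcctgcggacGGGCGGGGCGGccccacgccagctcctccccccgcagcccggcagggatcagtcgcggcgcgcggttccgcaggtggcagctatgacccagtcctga
The Gcgr promoter holds 2 GC boxes, which begin 77 and 51 bases before the start, and the Glp1r promoter holds 3, which begin 119, 97 and 92 bases before it, the last pair sharing 1 base. Of all 32851 RefSeq promoters of this length, 32.7% hold a GC box on either strand. The GC content is 70.4% for Gcgr and 73.2% for Glp1r, above that of 91.2% and 94.3% of the promoters. The full cAMP response element TGACGTCA (in 1.55% of promoters), its shorter core TGACG on either strand, which is part of it (17.8%), and the E-box CACGTG (6.02%) have no match in these windows of Gcgr and Glp1r, which says only that those letters are not in them. The RT-qPCR primers that the study used for Gcgr are shown because they tell which transcripts such an assay reads.
Gcgr forward primer: cagggccttgtcatggtgat
Gcgr reverse primer: gagattcaggtggggctgtc
Both primers match 3 of the 4 annotated Gcgr transcripts and span 142 bases, from base 1534 to base 1675 of the principal transcript.

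Glp1r was the most abundant of the receptor transcripts, followed by Gcgr and then Gipr. Levels were compared between genes as normalized counts per kb of principal transcript. Glp1r had a mean of 2708 normalized counts per kb over the 6 libraries (lowest 2408, highest 3176), Gcgr a mean of 519 (331 to 673) and Gipr a mean of 242 (173 to 319). With this length the ranges of the receptors did not overlap, and the order was the same in 6 of 6 libraries. In a library, Glp1r was at 8.70 to 14.4 times the per-kb level of Gipr, Gcgr at 1.83 to 2.53 times that of Gipr, and Gcgr at 0.133 to 0.243 times that of Glp1r. Of the 13526 genes with an annotated length, 2.66% had a higher per-kb mean than Glp1r, 14.7% than Gcgr and 27.3% than Gipr. With the union of all exons as the length, the means were 2708 for Glp1r, 388 for Gcgr and 199 for Gipr, in the same order. The ranges of Gcgr (247 to 503) and Gipr (142 to 261) then overlapped.

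Among 13 islet G-protein-coupled receptors in the table, Glp1r had the highest per-kb level, Gcgr the second and Gipr the fifth. The 13 are these 3 and the 10 present of 16 others chosen for comparison, so the ranks hold within that choice only. Between Gcgr and Gipr stood Gpr119, a receptor for lipid amides that also couples to cAMP, with a mean of 454 normalized counts per kb (350 to 536), and the fatty acid receptor Ffar1 with 398 (335 to 498). The ranges of Gcgr, Gpr119 and Ffar1 overlap, so that their order does not hold beyond the spread between libraries. The next receptors below Gipr were that for galanin, Galr1, with a mean of 167 (133 to 226), and the purinergic P2ry1 with 155 (119 to 218). Their ranges overlap with that of Gipr. The somatostatin receptor Sstr3 had a mean of 96.8, the adrenergic receptor Adra2a 56.9 and the GABA-B subunit Gabbr1 10.2 normalized counts per kb.

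**Figure D1:**
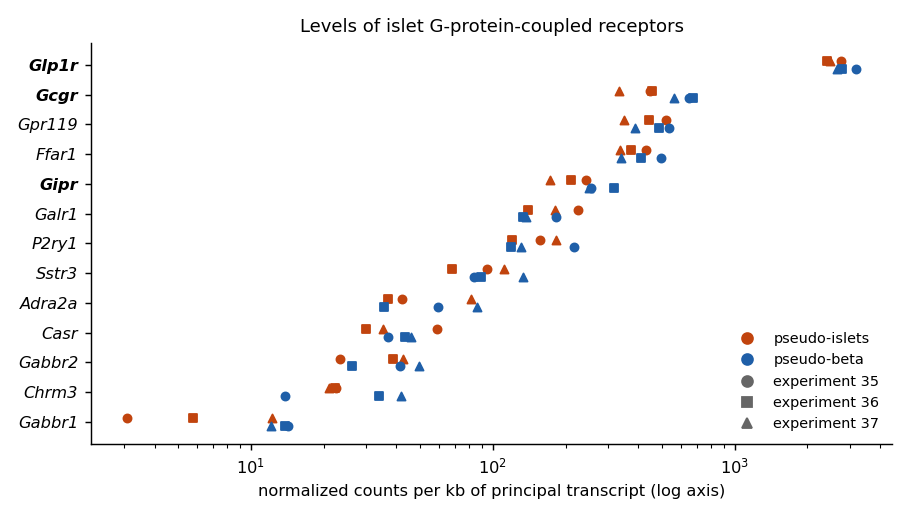
Normalized counts per kb of principal transcript (log axis) of 13 islet G-protein-coupled receptors, ordered by their mean, with 1 point per library (colour, group; shape, experiment). Glp1r stands alone at 2408 to 3176 per kb, Gcgr shares the range of Gpr119 and Ffar1, and Gipr is the fifth of the 13.

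Gcgr was lower in beta-cells from pseudo-islets than in those from pseudo-beta. Its normalized counts were 874, 889 and 648 in pseudo-islets, against 1267, 1318 and 1100 in pseudo-beta. The groups did not overlap, and in each group the library of experiment 37 was the lowest. Group means were 804 ± 135 in pseudo-islets and 1228 ± 114 in pseudo-beta (SD, n = 3). Within experiments 35, 36 and 37, pseudo-beta had 1.45, 1.48 and 1.70 times the value of pseudo-islets. The log2 fold change of pseudo-islets over pseudo-beta on the log2(value + 1) scale was -0.62, a 1.54-fold higher level in pseudo-beta. In limma with the experiment as a replicate block its standard error was 0.12, its 95% interval -0.87 to -0.37 and its adjusted p over 13535 genes 0.043. Without the block the standard error was 0.17, the interval -1.0 to -0.24 and the adjusted p in limma 0.649. The call in limma thus rests on the pairing of samples by experiment. With the block, limma called 73 genes at an adjusted p under 0.05 (0.539% of those tested), 14 of them lower in pseudo-islets (0.103%), and without it 8 (0.0591%), with 0 lower. Leaving out experiment 35, 36 or 37 from the blocked fit gave an adjusted p in limma of 0.147, 0.0639 or 0.225, and the blocked fit without a trend of the prior variance gave 0.51. The study picked Gcgr on these same samples, from genes with an adjusted p under 0.05 in its own DESeq2 analysis. Whether that model held the experiment is not given in the sources used here. The values here are therefore not independent evidence of the direction of Gcgr. The other evidence of the study includes RT-qPCR of independent samples, where Gcgr is among the genes it describes as regulated by alpha- and delta-cell signals. The paper further reports that glucagon treatment of pseudo-beta lowered Gcgr, and that somatostatin treatment did not change it. For treatment with a GLP1R agonist, its text names Txnip but not Gcgr as lowered. In sorted bulk RNA, fewer cells with the transcript and less of it per cell cannot be told apart.

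The antisense gene Gm11789 (ENSMUSG00000084983, chr11:120526855-120531784, minus strand) overlaps the 5′ end of Gcgr, with 0 exonic bases in common, and was looked up after the values of Gcgr were seen. Its normalized counts were 118, 123 and 129 in pseudo-islets, against 151, 185 and 171 in pseudo-beta (log2 fold change -0.44, SE 0.24, adjusted p in limma 0.969, 0.477 with the block). Whether the counting used the strand is not given in the sources used here, and without it reads of Gcgr introns and of Gm11789 cannot be told apart.

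Gipr was also lower in pseudo-islets in 3 of 3 experiments, without passing the test over all genes. The 3 pseudo-islets libraries had 697, 604 and 493 normalized counts of Gipr, and those of pseudo-beta 729, 910 and 715. The groups did not overlap, yet the highest pseudo-islets library came near the lowest of pseudo-beta. Means were 598 ± 102 and 785 ± 109 (SD, n = 3). Pseudo-beta had 1.05, 1.51 and 1.45 times the level of pseudo-islets within experiments 35, 36 and 37, a smaller difference in experiment 35 than in the others. The log2 fold change was -0.40, with an interval in limma of -0.71 to -0.08 with the block (SE 0.14, adjusted p 0.311) and -0.81 to 0.02 without it (SE 0.19, adjusted p 0.928).

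Glp1r differed least. Pseudo-islets had 16063, 13991 and 14459 normalized counts of this transcript, and pseudo-beta 18456, 16109 and 15353. The groups overlapped, since the pseudo-islets library of experiment 35 was above the pseudo-beta library of experiment 37. Means were 14838 ± 1087 and 16639 ± 1618 (SD, n = 3). Within experiments 35, 36 and 37 pseudo-beta had 1.15, 1.15 and 1.06 times the level of pseudo-islets. The log2 fold change was -0.16, with an interval in limma of -0.30 to -0.02 with the block (SE 0.06, adjusted p 0.349) and -0.43 to 0.10 without it (SE 0.12, adjusted p 0.990). These intervals put the level of Glp1r in pseudo-beta at 1.02 to 1.23 times that in pseudo-islets with the block, and at 0.933 to 1.34 times without it.

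**Figure D2:**
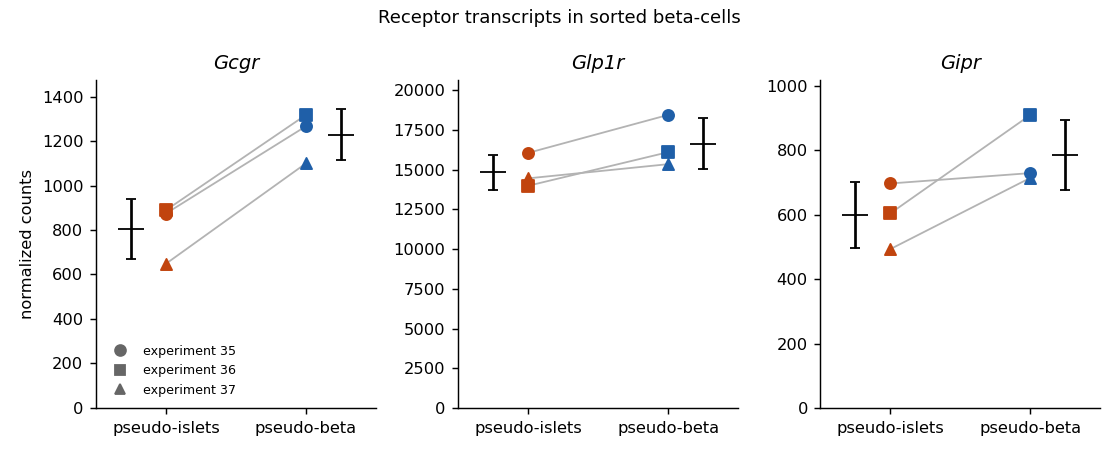
Normalized counts of Gcgr, Glp1r and Gipr in each library, with lines joining the samples of an experiment and bars at the mean ± SD (n = 3) beside each group. Every line goes up from pseudo-islets to pseudo-beta, and the groups are apart for Gcgr and Gipr but overlap for Glp1r.

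All receptors were thus lower in pseudo-islets in 3 of 3 experiments, as were 15.0% of all genes tested, and 2 of them had groups that did not overlap in that direction, as did 5.13% of all genes (10.8% in either direction). At an unadjusted p under 0.05, limma picked out only Gcgr of the receptors without the block, beside 5.4% of all genes, and all 3 with it, beside 11.9%. The median log2 fold change of all genes was 0.01. Of the 4448 genes whose mean reached 500 normalized counts, 16 (0.36%) had a lower log2 fold change than Gcgr, 81 (1.82%) than Gipr and 516 (11.6%) than Glp1r. With 3 samples against 3 an exact two-sided permutation test cannot go below p = 0.1, which was its value for Gcgr and for Gipr, and it gave p = 0.2 for Glp1r. Summed per kb, the receptors had 3174 ± 247 normalized counts in pseudo-islets, against 3766 ± 312 in pseudo-beta (SD, n = 3, exact permutation p = 0.2).

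**Figure D3:**
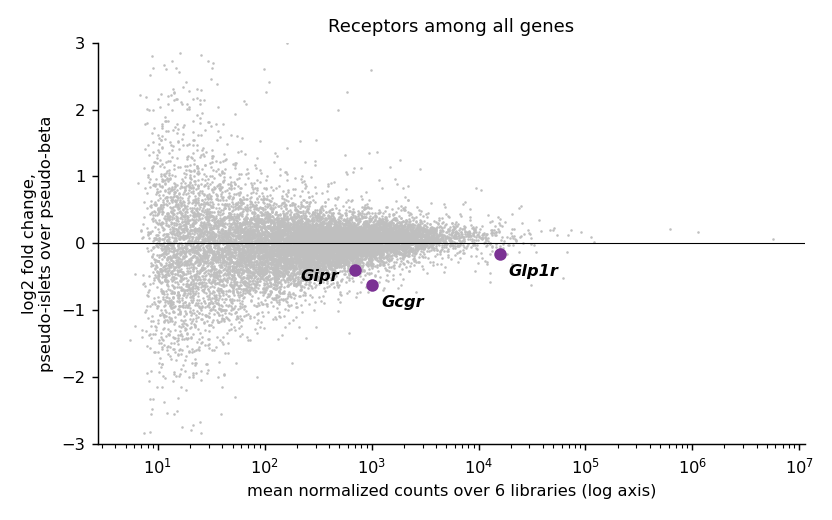
Log2 fold change of pseudo-islets over pseudo-beta against the mean normalized count over 6 libraries (log axis), with 1 grey point per gene and the receptors in purple; 20 genes lie outside the plotted range. Gcgr lies at -0.62 and Gipr at -0.40, and Glp1r, among the most abundant genes, lies at -0.16.

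On average the difference was largest for Gcgr and smallest for Glp1r, but Gipr had the smallest in experiment 35 and the largest in experiment 36. The ratios between the receptors are given as values, since an exact test of 3 against 3 cannot go below p = 0.1. The log2 ratio of Gcgr to Glp1r was lower in pseudo-islets by 0.33, 0.36 and 0.68 in experiments 35, 36 and 37, with group means that differed by -0.46 (exact permutation p = 0.1, adjusted over 3 ratios 0.3). The log2 ratio of Gcgr to Gipr differed by -0.47, 0.02 and -0.23 in these experiments, on average by -0.23 (exact permutation p = 0.2, adjusted 0.3). That of Glp1r to Gipr differed by -0.14, 0.39 and 0.45, on average by 0.23 (exact permutation p = 0.4, adjusted 0.4). Gcgr made up 12.9%, 14.8% and 11.1% of the summed per-kb level in pseudo-islets, below the 15.9%, 17.9% and 16.3% in pseudo-beta (exact permutation p = 0.1). The share of Glp1r was 80.5% ± 2.45 in pseudo-islets and 76.0% ± 2.15 in pseudo-beta, and that of Gipr 6.57% ± 0.699 and 7.32% ± 1.10 (SD, n = 3, exact permutation p = 0.1 and 0.4).

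**Figure D4:**
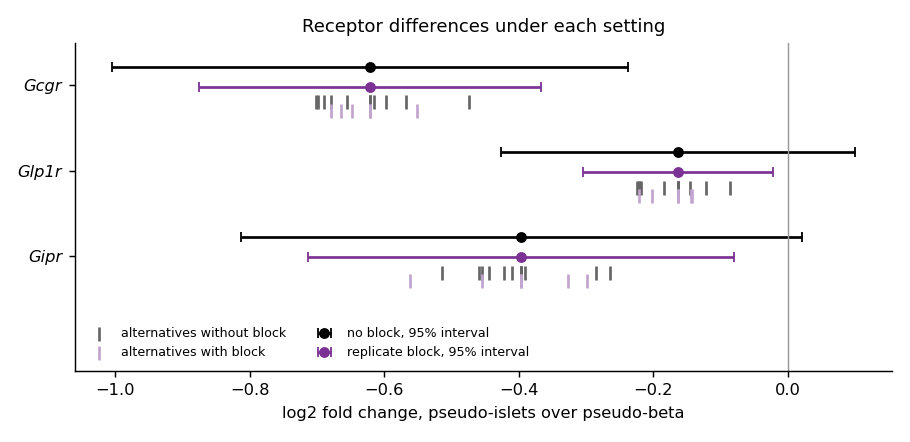
Log2 fold change of each receptor, pseudo-islets over pseudo-beta, with the 95% interval of limma without and with the replicate block, and a tick for each of the 18 alternative settings. All points and ticks lie below 0, from -0.70 to -0.47 for Gcgr, -0.22 to -0.09 for Glp1r and -0.56 to -0.26 for Gipr.

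The pathway of the receptors was followed in lists of ligands, partners, cAMP enzymes, effectors, desensitization and target genes. Of 96 genes sought 71 were in the table, of which 35 were at a higher and 36 at a lower level in pseudo-islets. Their median log2 fold change was -0.01, beside 0.01 for all genes. Limma with the block called 7 of them higher and 0 lower (Gcg, Pcsk1, Cpe, Pde4b, Vps35, Crem and Pdyn), where it called 0.539% of all genes, and without the block 2 (Gcg and Pdyn), where it called 0.0591%. Gcg is the hormone gene of the alpha-cells, which were added to pseudo-islets only, and Pcsk1 and Pdyn were picked by the study on these samples. The lists were chosen with earlier results of these data known, so these shares are not a test of the pathway. Both unblocked calls were lost when any pseudo-islets library or the pseudo-beta library of experiment 35 or 36 was left out, and the blocked fit had 3, 4 or 3 pathway calls without experiment 35, 36 or 37. No gene of these lists was called lower as Gcgr was, except Pcsk1n in the blocked fit without experiment 37 or with scaling without the 10 most abundant genes.

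Among 7 of 8 ligand genes in the table (Gip was not analysed here), 3 were called higher with the block. Gcg, which encodes proglucagon, had 1763, 941 and 2094 normalized counts in pseudo-islets, against 36.1, 14.1 and 0 in pseudo-beta. No pseudo-beta library came near the lowest of pseudo-islets (adjusted p in limma 0.044 without and 0.00148 with the block). Pcsk1, the convertase PC1/3 that releases GLP1 from proglucagon and also cleaves proinsulin, had 15813, 13400 and 12644 against 11265, 10927 and 8881 (log2 fold change 0.43, adjusted p in limma with the block 0.028, 0.781 without). It is one of the genes the study chose on these samples and then measured by RT-qPCR in independent ones. Carboxypeptidase E, Cpe, which trims peptide hormones, was higher within each experiment although the groups overlapped (log2 fold change 0.35, adjusted p in limma with the block 0.043, 0.998 without). Without the block its log2 fold change was 0.046 without pseudo-islets 37, 0.092 without pseudo-beta 35, 0.61 without pseudo-beta 37 and 0.70 without pseudo-islets 35. Pcsk2, the convertase that releases glucagon, had a log2 fold change of 0.20 (adjusted p in limma with the block 0.294), Dpp4, the peptidase that inactivates GLP1 and GIP, 0.45 (0.065), and Pcsk1n, which encodes the PC1/3 inhibitor proSAAS, -0.41 (0.098).

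Of 15 other class B receptors and receptor activity-modifying proteins, 4 were in the table and none was called. Ramp2, which assists several class B receptors, had 75.3, 133 and 107 normalized counts in pseudo-islets, against 55.5, 53.8 and 53.3 in pseudo-beta (log2 fold change 0.91, SE 0.32, adjusted p in limma with the block 0.294). Its groups did not overlap. Ramp1 was low and had a log2 fold change of -1.02 (SE 0.57), and the VIP receptor Vipr1 one of -0.17 (SE 0.31).

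Of 26 G-protein, cyclase and phosphodiesterase genes, 18 were in the table, 5 with a higher and 13 with a lower level in pseudo-islets (median log2 fold change -0.20). Only the cAMP-degrading phosphodiesterase Pde4b was called, with 2334, 1961 and 1795 normalized counts in pseudo-islets against 1557, 1384 and 1014 in pseudo-beta (log2 fold change 0.64, SE 0.18, adjusted p in limma 0.028 with the block and 0.681 without). It was higher in pseudo-islets, opposite in sign to Gcgr. Pde7a had the lowest log2 fold change of the list, -1.39 (SE 0.35, adjusted p in limma with the block 0.157), with 27.3 to 34.7 normalized counts in pseudo-islets, below the 69.5 to 94.9 of pseudo-beta. Gnas, the gene of the stimulatory G protein itself, had a log2 fold change of -0.11 (SE 0.24), which is within the spread between replicates and changed sign when pseudo-islets 35 or 36 or pseudo-beta 37 was left out.

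Of 18 cAMP effectors 17 were in the table, and none was called. The highest log2 fold change was that of the transcription factor Creb1, 0.38 (SE 0.21), and the lowest that of the protein kinase A inhibitor Pkig, -0.37 (SE 0.20). Rapgef4, which encodes the cAMP sensor EPAC2 of beta-cells, had -0.06 (SE 0.13). Of 14 desensitization and trafficking genes 13 were in the table (Arrb1 was not analysed here). Vps35, a subunit of the retromer that sorts receptors out of endosomes, was called higher with the block (log2 fold change 0.45, adjusted p in limma 0.028, 0.872 without the block). In the blocked fit without experiment 35, 36 or 37 it was not called (adjusted p in limma 0.123, 0.0724 and 0.0536). The normalized counts of Vps35 were 6158 to 8535 in pseudo-islets, against 4753 to 6316 in pseudo-beta. The receptor kinase Grk3 had a log2 fold change of -0.34 (SE 0.17) and the arrestin Arrb2 -0.22 (SE 0.21), neither of them called.

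Of 16 genes in the list of cAMP-induced genes, 13 were in the table and 2 were called higher with the block. Pdyn, which encodes prodynorphin, had 950, 2308 and 1792 normalized counts in pseudo-islets, against 156, 314 and 358 in pseudo-beta (log2 fold change 2.60, SE 0.36, adjusted p in limma 0.046 without the block). The study chose this gene on these samples too. It also reports RT-qPCR of Pdyn in independent samples and a lower dynorphin content of pseudo-beta by ELISA. Crem, the cAMP-responsive modulator, had 953, 957 and 1415 against 656, 467 and 842 (log2 fold change 0.77, SE 0.24, adjusted p in limma 0.032 with the block and 0.781 without). Crem was not called in the blocked fit without experiment 35, 36 or 37 (adjusted p in limma 0.0683, 0.0686 and 0.155). The kinase Sik2, whose induction by cAMP was not tested here, had the lowest log2 fold change of the list, -1.02 (SE 0.46, adjusted p in limma with the block 0.274). The immediate-early gene Fos, named after its values were seen, had 902, 329 and 8245 normalized counts in pseudo-islets, against 1104, 384 and 9085 in pseudo-beta. It was high in experiment 37 in both groups, the experiment in which Gcgr was lowest in both. This was not particular to Fos. Egr1 had 328, 173 and 2626 in pseudo-islets, against 390, 190 and 2456 in pseudo-beta. Dusp1 had 1332, 900 and 3805, against 1112, 745 and 5262. Nr4a1 and Junb of the same list were likewise highest in experiment 37 in both groups. The part of these genes, or of experiment 37 as a whole, in the level of Gcgr was not tested.

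**Figure D5:**
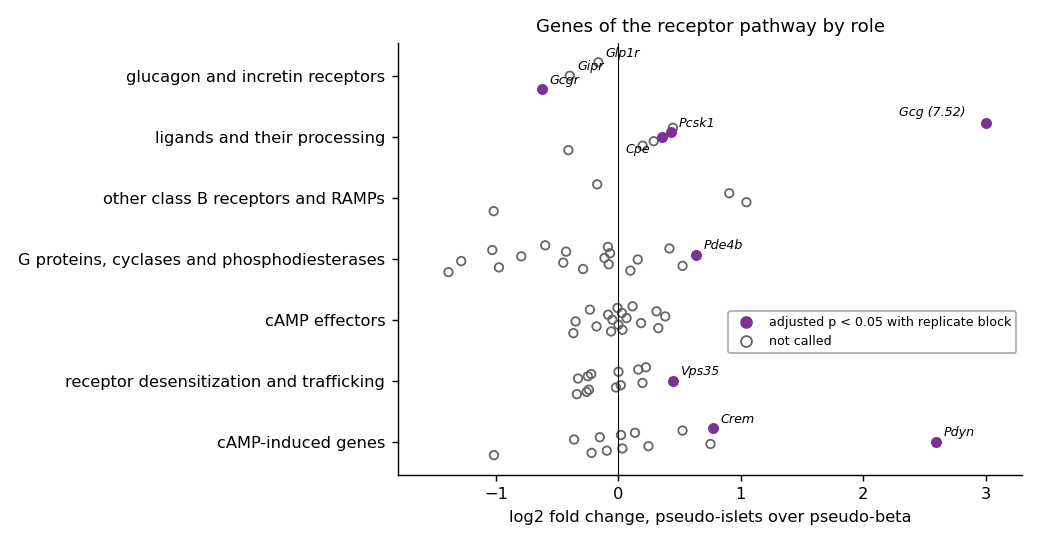
Log2 fold change of pseudo-islets over pseudo-beta for the receptors and 6 pathway lists by role, with 1 point per gene (Pde10a is in 2 lists) and filled points for genes with an adjusted p under 0.05 in limma with the replicate block. Gcg lies beyond the axis and is drawn at its edge with its value of 7.52; Gcgr is the only filled point below 0.

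None of the 10 other islet G-protein-coupled receptors was called, with or without the block. Their median log2 fold change was -0.14, from -1.12 for Gabbr1 (SE 0.49) to 0.26 for Galr1 (SE 0.22). Gpr119 had a log2 fold change of -0.11 (SE 0.19) and Ffar1 one of -0.12 (SE 0.17), at per-kb levels in the range of Gcgr.

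Hormone transcripts of other islet cells were higher in beta-cells from pseudo-islets, opposite in direction to the receptors, while other markers of these cells went either way. Beta-cell markers, with 10 of 10 in the table, took 38.7% to 42.5% of a library's total in pseudo-islets and 38.5% to 41.9% in pseudo-beta. Alpha-cell markers, with 5 of 9 in the table, summed to 7567 to 11521 normalized counts in pseudo-islets, against 5026 to 6191 in pseudo-beta. Most of this sum was Ttr (4757 to 7565 and 3063 to 4307) and Slc7a2 (1338 to 1665 and 1526 to 2036). Both were high in pseudo-beta too, where Gcg had 36.1, 14.1 and 0, so the sum does not measure the amount of alpha-cell RNA. Of the 5 markers, 3 were higher and 2 lower in pseudo-islets. Besides Gcg, Ttr was called higher with the block (log2 fold change 0.59, adjusted p in limma 0.030, 0.848 without the block). Its log2 fold change was 0.36 without pseudo-islets 37. Of 5 delta-cell markers 2 were in the table, and Sst had 190, 146 and 210 normalized counts in pseudo-islets, against 0, 0 and 4.74 in pseudo-beta (adjusted p in limma 0.019, 0.000734 with the block). The other, Rbp4, had 341, 222 and 198 in pseudo-islets, against 273, 250 and 245 in pseudo-beta (log2 fold change -0.05, SE 0.25), with groups that overlapped. Both PP-cell genes were called higher with the block, Ppy with a log2 fold change of 1.15 and Pyy with 1.04 (adjusted p in limma 0.003 and 0.026, and 0.990 and 0.983 without the block). Their groups overlapped, and with libraries left out in turn the log2 fold change ran from 0.37 (without pseudo-islets 35 or pseudo-beta 36) to 2.09 (without pseudo-islets 36) for Ppy and from 0.31 (without pseudo-beta 36) to 1.77 (without pseudo-beta 35) for Pyy. Markers of acinar cells (0 of 8) and stromal cells (0 of 6) were not analysed here, and 1 of 6 endothelial markers (Esam, 41.4 to 74.4 normalized counts in pseudo-islets, against 56.5 to 89.5 in pseudo-beta) and 1 of 6 immune markers (Cd68, 7.39 to 18.6 and 3.74 to 10.4) were low. The part of these other cells in the receptor levels was not tested.

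Across the 6 libraries, the log2 levels of Gcgr and Gipr had a Pearson correlation of 0.915, those of Gcgr and Glp1r of 0.680 and those of Glp1r and Gipr of 0.581. These are descriptions over libraries that share groups and experiments. Among the 9125 genes whose mean reached 100 normalized counts, the patterns most like that of Gcgr were those of Slc38a9, an amino acid transporter of the lysosome (r = 0.983), Hnrnph3, an RNA-binding protein (0.982), and St6galnac5, a sialyltransferase (0.979). Most like Glp1r were Fam92b (0.989), Sh3d21 (0.979) and Ndn, which encodes necdin (0.975). Most like Gipr were Hook2, a linker of cargo to microtubules (0.998), Mtg2, a GTPase of mitochondrial ribosomes (0.984), and Pibf1, a centrosomal protein (0.982). None of these genes was called in limma, with or without the block.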

How the data were processed

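RNA-seq of sorted beta-cells from 3 pseudo-islets and 3 pseudo-beta samples was used, with groups and experiment numbers taken from the sample labels. The authors made libraries from 5 ng of RNA with ribosomal RNA depletion, read pairs of 75 bases, aligned them with STAR (2.7.6a), quantified genes with RSEM (1.3.1) and normalized with DESeq2 (1.26.0, in R 3.6.3), with versions as in the submitters' processing notes. The deposited signal is normalized counts, not reads, so no count test was run, and normalization to the median gene means that a change shared by most genes would not show. The deposited table also holds the authors' own mean signal, log2 fold changes, a test statistic as a score, and p-values, none of which was used. No gene was filtered out, since each of the 13535 reaches 10 normalized counts in 3 or more libraries.

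Tests were run in limma 3.58.1 (R 4.3.3) on log2(value + 1) with a trend of the prior variance and Benjamini-Hochberg adjustment over all genes, called at an adjusted p under 0.05, and were tested on simulated data. Deviations from the group means correlated at 0.119, 0.121 and 0.325 across genes between samples with the same experiment number and at -0.203 to 0.0922 otherwise. As all the former exceed 0.1, samples were taken as paired by experiment, and values with a replicate block stand beside those without. For experiments 35 and 36 the margin is small, since pseudo-islets 35 and pseudo-beta 36 correlated at 0.0922. The median standard error of a log2 fold change was 0.27 without the block and 0.21 with it. Levels of the receptors, ratios and shares were tested by exact two-sided permutation over all 6 libraries, which does not use the pairing by experiment. The limma p-values without the block rest on the spread between the samples of a group. Those with the block rest on the spread left after differences between experiments are taken out. Both also draw on the trend of the prior variance over all genes. Lengths are those of GENCODE M21 principal transcripts, found for 13526 genes. Genes named are the receptors, list members called in either fit, those with the highest and lowest log2 fold change of each pathway list (mean of 50 or more), preset partners and, for each receptor, the 3 genes most alike. Some others (Rapgef4, Gpr119, Ffar1 and further receptors, Fos, Egr1, Dusp1, Nr4a1, Junb, Gm11789, Slc7a2, Rbp4, Esam and Cd68) were named after their values were seen. Members and lists were chosen with earlier results of these data known. Within-experiment shares were added after the data were seen. Alternatives were the replicate block, the trend, pseudocounts of 0.1 and 10, scaling without the 10 most abundant genes, quantile normalization, a filter of 10 in every library, the length used and leaving out each library.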

Additional observations from a re-analysis of the deposited data

How the results depend on the processing

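The direction of each receptor held in all 18 alternatives to the fit without block. Gcgr was called in 2 of them, the replicate block (-0.62, adjusted p in limma 0.043) and the block with scaling without the 10 most abundant genes, added after seeing the data (-0.68, adjusted p 0.0275). Its adjusted p in the others ran from 0.0639 to 1.00, and Glp1r (0.129 to 1.00) and Gipr (0.233 to 1.00) were not called. The difference in the share of Gcgr in the summed per-kb level was -5.20 to -2.82 percentage points (pseudo-islets minus pseudo-beta) with the other length, within each experiment and with each library left out. With each library left out, the difference in the log2 ratio of Gcgr to Glp1r was -0.58 to -0.33, that of Gcgr to Gipr -0.29 to -0.15 and that of Glp1r to Gipr 0.10 to 0.36, but within single experiments only that of Gcgr to Glp1r had 1 sign. Scaling without the 10 most abundant genes moved the median of all genes from 0.01 to -0.05.

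The number of called pathway genes, 2 without the block, was 7 with the block and 8 with block and scaling. It was 1 with the filter of 10 in every library and 0 with no trend (10 at an unadjusted p under 0.05), pseudocount 0.1 (12), scaling (15), quantile normalization (12) or the block with no trend (16), all in limma. Leaving out a library gave 0 to 4, with 0 after leaving out any pseudo-islets library or pseudo-beta of experiment 35 or 36 (8 to 16 at an unadjusted p under 0.05). Over all genes, 8 were called without the block and 731 had an unadjusted p under 0.05. The block gave 73, the block with scaling 82 (55 higher and 27 lower, against 59 and 14 with the block alone), no trend, scaling and quantile normalization 2 each, pseudocount 0.1 gave 1, and the block with no trend 0 (1136 unadjusted). Leaving out a library gave 0 to 73, which is 0 to 13 without the block (0 without any pseudo-islets library or pseudo-beta 35, 501 to 794 unadjusted) and 28, 73 and 45 with the block and without experiment 35, 36 and 37. Of the 26 genes named by rule for which alternatives were run, Gnas (-0.39 to 0.071 over the libraries left out) changed sign without pseudo-islets 35 (0.0047) or 36 (0.050) or pseudo-beta 37 (0.071), and Vipr1 (-0.43 to 0.041, and -0.45 to 0.16 with the block) without pseudo-islets 36 (0.041) and in the blocked fit without experiment 36 (0.16). The causes were not tested. Read depth is unknown, and the median standard error of a log2 fold change, 0.27 without and 0.21 with the block, limits what 3 samples a group can resolve.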
